A study of Mus musculus with 10 samples.

Results

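A set of 10 genes that report on and restrain signalling through the kinase ERK was followed across all conditions of the data set: the dual-specificity phosphatases Dusp4, Dusp5 and Dusp6, the Sprouty genes Spry1, Spry2 and Spry4, the Sprouty-related gene Spred1, and the ETS transcription factors Etv1, Etv4 and Etv5. They were chosen by name, and each of the 10 was found by its NCBI Gene identifier among the 18103 identifiers of the count table. The data were RNA sequencing read counts per gene from 10 libraries of 2 mouse breast cancer cell lines, harvested on day 7, with 2 libraries in each of 5 groups. Py2T-LT cells, the long-term mesenchymal form of a mouse mammary tumour line, known to arise under prolonged exposure to TGF-β, were sampled as controls, with a MEK inhibitor alone, and with bone morphogenetic protein 2 (BMP2) plus the MEK inhibitor. MTΔECad cells, mesenchymal mouse breast cancer cells in which the E-cadherin gene was deleted, were sampled as controls and with rosiglitazone, a drug that activates the nuclear receptor PPARγ. Per the labels' protocols, controls received medium with DMSO, and the MEK inhibitor was PD98059, usually at 40 µM, with BMP2 at 200 ng/ml and rosiglitazone at 2 µM. No dose is given for a single library. Because the written protocol follows BMP2 with rosiglitazone while the Py2T-LT labels do not name that drug, its presence in those cultures is unknown, as is that of TGF-β. Each line is 1 established culture, and no group received BMP2 without the inhibitor.

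The kinase MEK phosphorylates and activates ERK, which in turn switches on transcription of genes that damp the pathway. DUSP6 and DUSP5 remove phosphate from ERK in the cytoplasm and in the nucleus respectively, DUSP4 acts in the nucleus on ERK and related kinases, and Sprouty and SPRED proteins restrain the pathway upstream, between growth factor receptors and RAF. ETV1, ETV4 and ETV5 form 1 subfamily of ETS factors that act downstream of fibroblast growth factor and ERK signalling. Many of these genes are held down by the repressor capicua, which binds a short octamer and is released from its targets when ERK is active. A fall in such transcripts is therefore widely used as a readout of MEK inhibition.

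Library totals ran from 14659987 to 17249199 counts, and the 10 genes together took 0.0507% to 0.0744% of a library. Levels are CPM, counts scaled to a common library size, with TMM factors that even out differences in library composition, and 1 count was worth at most 0.07 CPM. The words rose and fell are kept for genes where edgeR's quasi-likelihood test over all 13149 genes tested gave a Benjamini-Hochberg adjusted p under 0.05. Each log2 fold change is followed by its standard error (SE). The p-values rest on the spread between the 2 independent experiments within groups, pooled over the 5 groups and with information shared across genes. The E-cadherin gene Cdh1 stood at 2.58 and 2.25 CPM in MTΔECad controls and at 36.0 and 31.7 CPM in Py2T-LT controls, though counts per gene do not show which exons the reads came from. The mesenchymal filament gene Vim had means of 2980 to 5700 CPM over the 5 groups. Markers of other cell types were low: the 2 haematopoietic markers in the table of 5 listed summed to 2.38 to 7.5 CPM, the 4 endothelial ones to 0.268 to 1.56 CPM and 2 of 4 muscle ones to 0.134 to 0.646 CPM. In bulk RNA of this kind, fewer cells expressing a gene and less of its RNA per cell cannot be told apart.

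RefSeq promoter windows of 7 of the 10 genes were searched on both strands for the capicua octamer. It was spelled as TGAATGAA, TGAATGAG, TGAATGGA, TGAATGGG, TCAATGAA, TCAATGAG, TCAATGGA or TCAATGGG. No window of Dusp4, Spry4 or Etv4 was searched, so the counts of windows given here leave these genes out. Windows covered the 250 bases before each annotated start, and Etv1 and Etv5 have a pair of starts, which makes 9 windows. An octamer was found in 4 of these 9, against 5.86% of all 32851 mouse windows of the same length. The 4 windows with a match are shown because they carry the sequence through which capicua is known to act, with the octamers in capitals, 5′ to 3′ along the gene's own strand in build GRCm38.p6. They lie at chr10:99262981-99263230 on the plus strand for Dusp6, chr16:22438369-22438618 on the minus strand for the internal start of Etv5, chr14:105896820-105897069 on the minus strand for Spry2, and chr19:53528895-53529113 on the plus strand for Dusp5, which is printed only to the end of its octamer because the last 36 bases of its window lie in an annotated GENCODE exon.
Dusp6: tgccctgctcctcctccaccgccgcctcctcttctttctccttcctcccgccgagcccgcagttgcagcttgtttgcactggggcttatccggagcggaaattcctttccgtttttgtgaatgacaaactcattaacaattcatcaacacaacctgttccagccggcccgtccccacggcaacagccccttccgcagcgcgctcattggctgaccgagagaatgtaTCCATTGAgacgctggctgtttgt
Etv5: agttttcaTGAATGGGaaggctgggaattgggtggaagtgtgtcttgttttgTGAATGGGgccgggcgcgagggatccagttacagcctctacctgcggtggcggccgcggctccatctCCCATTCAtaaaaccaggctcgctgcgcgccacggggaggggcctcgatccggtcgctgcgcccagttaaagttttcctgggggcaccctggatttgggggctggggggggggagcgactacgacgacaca
Spry2: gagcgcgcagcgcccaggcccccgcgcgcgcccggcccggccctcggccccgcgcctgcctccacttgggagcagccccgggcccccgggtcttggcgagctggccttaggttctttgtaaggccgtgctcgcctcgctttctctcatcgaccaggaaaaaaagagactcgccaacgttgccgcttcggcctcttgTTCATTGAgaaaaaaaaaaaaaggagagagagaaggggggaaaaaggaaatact
Dusp5: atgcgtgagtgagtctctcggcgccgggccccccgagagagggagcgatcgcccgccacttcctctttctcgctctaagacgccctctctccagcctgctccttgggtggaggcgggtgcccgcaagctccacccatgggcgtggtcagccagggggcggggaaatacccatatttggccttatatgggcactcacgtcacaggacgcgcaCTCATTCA
The Etv5 window held 3 octamers, all TGAATGGG, which begin at positions -242, -198 and -131 from the start site, the last of them on the opposite strand. In the other windows the single octamer lay on the opposite strand, at position -24 for Dusp6, -54 for Spry2 and -39 for Dusp5. The Dusp5 octamer runs into the annotated exon at the end of its window. The ETS site CCGGAAGT and the cAMP response element TGACGTCA, also searched on both strands, were in none of the 9 windows, against 2.88% and 1.55% of all windows. The CArG box, the site of serum response factor, was in 1 window, that of Dusp5, against 1.47% of all windows. Such matches describe the sequence only, and no binding was measured.

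Per kilobase of exon, Dusp4 and Dusp6 were the most abundant of the 10 transcripts in 4 of the 5 groups, and Spry4 and Etv1 the least abundant in all 5. In Py2T-LT controls the order of levels was Dusp4 at 52.1 CPM per kb, Dusp6 at 50.4, Spred1 at 27.1, Spry1 at 17.1, Spry2 at 14.4, Etv4 at 13.8, Etv5 at 12.1, Dusp5 at 4.60, Etv1 at 1.93 and Spry4 at 1.57 CPM per kb. Dusp4 and Dusp6 lay closer together than the spread of their replicates. With BMP2 plus the inhibitor, Dusp6 headed the order at 56.9 CPM per kb, followed by Spred1 at 26.0 and Dusp4 at 23.5. These values use the combined length of all GENCODE exons of a gene, which is longest for Etv1, at 13296 bases.

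**Figure D1:**
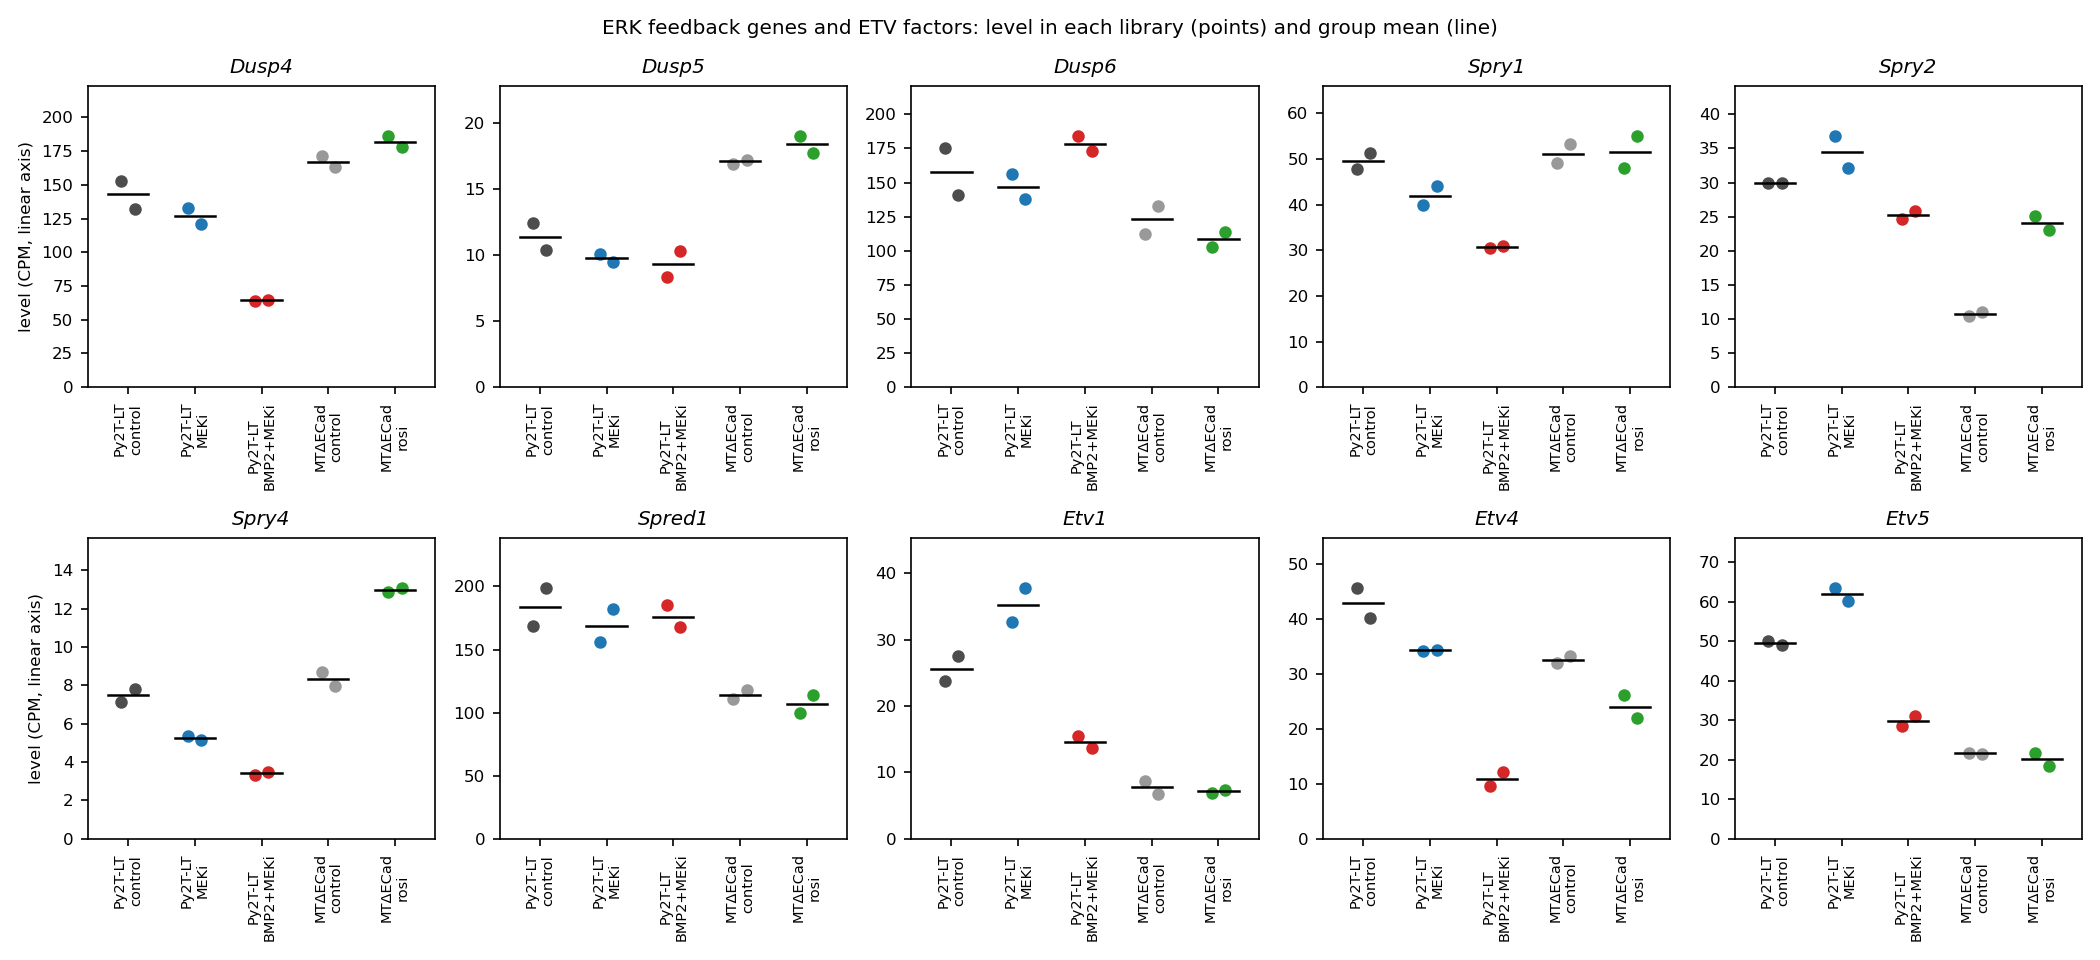
Level of each of the 10 genes in each library, in CPM on a linear axis from 0, with the 2 libraries of a group as points and their mean as a line. Etv4, Dusp4 and Spry4 are lowest in the 2 libraries with BMP2 plus the MEK inhibitor, while Dusp6 there lies at 184 and 173 CPM, and Spry2 has its lowest values, 10.4 and 11.0 CPM, in the MTΔECad controls.

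The first comparison asked what a week with the MEK inhibitor alone did to these readouts in Py2T-LT cells. Their response was small and mixed: 2 of the 10 genes rose (Etv1 and Etv5), 1 fell (Spry4) and 7 did not pass the test. Over all genes tested, 16.5% were called in this comparison, 8.98% as risen and 7.52% as fallen. The median log2 fold change of the 10 genes was -0.15, against 0.01 over all genes. Whether the kinase was still inhibited on the day of harvest was not measured in these data.

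None of the 3 phosphatases passed the test with the inhibitor, by edgeR or DESeq2, and 0 had an unadjusted p under 0.05. Dusp6, whose product acts on ERK itself, stood at 156 and 138 CPM with the inhibitor and at 175 and 141 CPM in controls. The groups overlapped, and the log2 difference of -0.10 ± 0.11 (SE, n = 2 per group) had a 95% interval from -0.33 to 0.13. Dusp4 was at 133 and 121 CPM against 153 and 132 CPM, overlapping ranges with a log2 difference of -0.17 ± 0.08 (edgeR adjusted p = 0.18). Dusp5, the least abundant phosphatase, was at 10.1 and 9.48 CPM against 12.4 and 10.4 CPM.

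The Sprouty genes differed among themselves. Spry4 was at 5.36 and 5.15 CPM with the inhibitor and at 7.15 and 7.81 CPM in controls, with no overlap, and fell by 0.51 ± 0.16 on the log2 scale (edgeR adjusted p = 0.036). Spry1 was at 39.9 and 44.0 CPM against 47.9 and 51.4 CPM, without overlap either, but its log2 difference of -0.24 ± 0.10 did not pass (edgeR adjusted p = 0.098). Spry2 lay the other way, at 36.8 and 32.2 CPM against 30.0 and 29.9 CPM, and was not called (log2 difference 0.20 ± 0.10, edgeR adjusted p = 0.22). Spred1, an inhibitor of RAS signalling that recruits neurofibromin, overlapped between the groups, with 156 and 182 CPM against 169 and 199 CPM.

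The ETV factors differed. Etv1 was higher with the inhibitor, at 32.7 and 37.8 CPM against 23.7 and 27.5 CPM, and rose by 0.46 ± 0.12 (edgeR adjusted p = 0.012). Etv5 was at 63.6 and 60.2 CPM against 50.2 and 49.1 CPM and rose by 0.32 ± 0.09 (edgeR adjusted p = 0.023). In both genes the lowest treated library exceeded the highest control. Etv4 was lower, at 34.2 and 34.3 CPM against 45.7 and 40.2 CPM, and its log2 difference of -0.33 ± 0.11 missed the threshold (edgeR adjusted p = 0.055).

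These calls were not firm. Over 9 alternative settings and omissions the adjusted p of Etv5 ran from 0.017 to 0.15, that of Etv1 from 0.0017 to 0.17, that of Spry4 from 0.036 to 0.21 and that of Etv4 from 0.03 to 0.3, with no change of direction. The call of Etv5 was lost without any 1 of the 4 libraries (adjusted p = 0.15 and 0.06 without inhibitor replicate 1 and 2, 0.058 and 0.12 without control replicate 1 and 2), as was that of Spry4 (0.1, 0.18, 0.055 and 0.21 in the same order), while Etv1 lost its call without inhibitor replicate 2 (0.17) or control replicate 1 (0.11) and Etv4 gained it without control replicate 2 (0.044). Spry4 was also not called with DESeq2 (0.15) or with only the groups compared (0.064), and Etv4 was called without the count filter (0.03) or with only the groups compared (0.032).

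Beyond the 10 genes, Il17rd and Egr1 were lower under the inhibitor. Il17rd, which encodes the fibroblast growth factor antagonist SEF, stood at 24.9 and 24.6 CPM against 56.7 and 61.0 CPM in controls and fell by 1.25 ± 0.10 (edgeR adjusted p = 2e-08). Egr1, an immediate early gene induced by ERK, was at 7.82 and 9.42 CPM against 20.5 and 28.9 CPM and fell by 1.51 ± 0.21 (edgeR adjusted p = 0.00027). Both estimates are larger than that of Spry4, though the difference between genes was not tested. Of 6 other phosphatases tested, 2 fell and none rose, by edgeR or DESeq2 (0 higher at an unadjusted p under 0.05), with a median log2 fold change of -0.30. Dusp9, which acts mainly on ERK, fell by 0.77 ± 0.18 and Dusp10, which prefers p38 and JNK, fell by 0.45 ± 0.11. Of 8 other inhibitors of receptor signalling, 3 fell (Il17rd, Spred2 and Errfi1) and none rose, by edgeR or DESeq2 (0 higher at an unadjusted p under 0.05; median -0.48). The count of 3 was 1 without inhibitor replicate 2 and 5 with no filter on low counts. Spred2 lost its call without control replicate 2 (log2 difference -0.36, adjusted p = 0.23) or inhibitor replicate 2 (-0.54, 0.13), its adjusted p running from 3.7e-05 to 0.23 over the alternatives. Errfi1 lost it without control replicate 1 (-0.27, 0.087) or inhibitor replicate 2 (-0.36, 0.064), with a range from 8.7e-05 to 0.087. Among 14 immediate early and other output genes, only Egr1 fell and only Fosl1 rose (by 0.73 ± 0.13), while Ccnd1 and Phlda1 differed by -0.03 ± 0.08 and -0.06 ± 0.17 and the median was -0.13. The shares called were 33.3% of these phosphatases, 37.5% of the inhibitors and 14.3% of the output genes, against 16.5% of all genes. Dusp1 stood at 12.7 and 14.3 CPM against 18.7 and 18.1 CPM (-0.44 ± 0.17, edgeR adjusted p = 0.089), and it was called with a replicate block (0.025), without the count filter (0.011) and with only the groups compared (0.024), its adjusted p running from 0.011 to 0.35. Capicua itself (Cic) had control libraries far apart, at 54.7 and 88.2 CPM, and was not called (log2 difference -0.31 ± 0.25). Its difference was -0.62 without control replicate 1 (edgeR adjusted p = 0.0029) and 0.07 without control replicate 2 (0.86), the ends of its range over the alternatives, and without the count filter it was called (0.013).

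With BMP2 added to the inhibitor, most of the 10 genes were lower. Against the Py2T-LT controls 6 of the 10 fell (Etv4, Dusp4, Spry4, Etv1, Etv5 and Spry1), none rose by edgeR or DESeq2 (0 higher at an unadjusted p under 0.05), and Spry2, Dusp5, Dusp6 and Spred1 did not pass the test. The percentage of all genes called was 38.5%, with 19.4% fallen and 19.1% risen. The median log2 fold change of the 10 was -0.71, against 0.0 over all genes. Against the inhibitor alone, where BMP2 is the difference that the labels name, 7 fell (those 6 and Spry2) and none rose by edgeR or DESeq2 (1 higher, Dusp6, at an unadjusted p under 0.05). If rosiglitazone followed BMP2 in these cultures, the effects of BMP2 and of that drug cannot be told apart in this comparison. There 37.3% of all genes were called, 19.4% fell, and the median was -0.54 for the 10 genes against 0.01. The inhibitor alone was compared with the same control libraries, and both comparisons with the combination use the same combination libraries, so their values are given side by side and are not independent.

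Etv4 showed the largest fall of the 10. It was at 9.51 and 12.2 CPM with the combination, against 45.7 and 40.2 CPM in controls and 34.2 and 34.3 CPM with the inhibitor alone. The combination libraries lie far below both other groups. The log2 fold change was -1.98 ± 0.13 against controls (edgeR adjusted p = 6e-11) and -1.65 ± 0.13 against the inhibitor alone (edgeR adjusted p = 1.2e-09).

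Etv1 and Etv5, highest of the Py2T-LT groups with the inhibitor alone, were lowest with the combination. Etv1 was at 15.4 and 13.7 CPM with the combination, a fall of 0.82 ± 0.13 against controls and of 1.28 ± 0.13 against the inhibitor alone (edgeR adjusted p = 3.9e-05 and 8.1e-08). Etv5 was at 28.5 and 31.2 CPM and fell by 0.73 ± 0.10 and by 1.05 ± 0.10 in the same comparisons (edgeR adjusted p = 3.4e-06 and 1.9e-08). For both genes no combination library reached the level of any control library. Summed per kilobase, the 3 ETV transcripts stood at 11.9 ± 0.979 CPM per kb with the combination (SD, n = 2), against 27.9 ± 1.26 in controls and 28.8 ± 0.312 with the inhibitor alone.

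Dusp4 and Dusp6, at like levels in controls, separated. Dusp4 was at 63.9 and 64.7 CPM with the combination, below every other library of the data set, and fell by 1.15 ± 0.08 against controls and by 0.98 ± 0.08 against the inhibitor alone (edgeR adjusted p = 5.3e-10 and 6.6e-09). Dusp6 was at 184 and 173 CPM, overlapping the controls at 175 and 141 CPM and above the inhibitor alone at 156 and 138 CPM. Its log2 difference was 0.17 ± 0.11 against controls, with a 95% interval from -0.05 to 0.40, and 0.27 ± 0.11 against the inhibitor alone, from 0.05 to 0.50 (edgeR adjusted p = 0.22 and 0.052). The second sat at the threshold: over 9 alternatives its adjusted p ran from 0.006 to 0.31, with a call as risen with RLE size factors (0.049), without the count filter (0.0064), with only the groups compared (0.006) and without inhibitor replicate 1 (0.047, log2 difference 0.37). Against controls the adjusted p of Dusp6 ran from 0.019 to 0.89, the call appearing without control replicate 1 (log2 difference 0.34). Dusp5 was at 8.37 and 10.3 CPM and overlapped the inhibitor alone, with a log2 difference of -0.06 ± 0.15.

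The 3 Sprouty genes were all lower than with the inhibitor alone. Spry4 was at 3.35 and 3.49 CPM and fell by 1.13 ± 0.18 against controls and by 0.62 ± 0.18 against the inhibitor alone (edgeR adjusted p = 2.3e-05 and 0.011). The second call was lost without combination replicate 1 (0.057) or inhibitor replicate 1 (0.053), its adjusted p running from 0.011 to 0.057 over the alternatives. Spry1 was at 30.4 and 30.9 CPM and fell by 0.69 ± 0.10 and by 0.45 ± 0.10 (edgeR adjusted p = 6.7e-06 and 0.00093). In all 3 genes the combination libraries lay below those of both other Py2T-LT groups. Spry2, at 24.6 and 25.8 CPM, fell by 0.45 ± 0.11 against the inhibitor alone (edgeR adjusted p = 0.0018), while its log2 difference from controls was -0.25 ± 0.11 (edgeR adjusted p = 0.07). Spred1 overlapped with both groups at 185 and 168 CPM, with log2 differences of -0.06 ± 0.10 from controls and 0.06 ± 0.10 from the inhibitor alone.

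**Figure D2:**
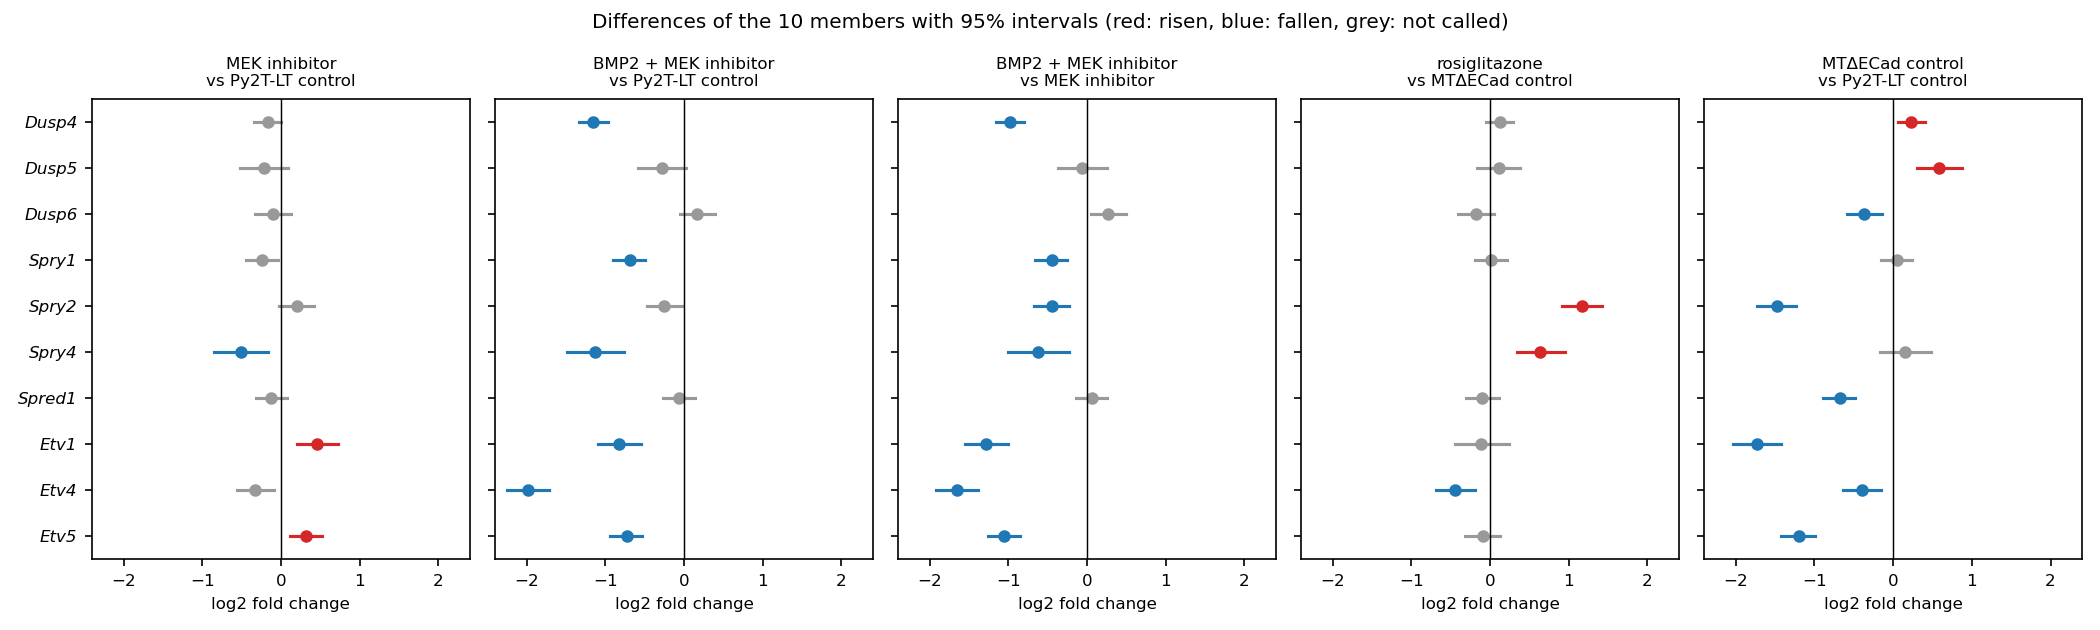
Log2 fold change of each of the 10 genes in the 5 comparisons, as points with 95% intervals from edgeR, red where the gene rose, blue where it fell and grey where it was not called. The ETV factors, Dusp4, Spry1 and Spry4 lie to the left of 0 with BMP2 plus the inhibitor, from -0.69 (Spry1) to -1.98 (Etv4) against controls, while Dusp6 lies at 0.17.

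Within the families, the make-up shifted with the levels. Etv4 made up 49.6 ± 2.28% of the summed ETV level per kilobase in Py2T-LT controls, 38.4 ± 0.452% with the inhibitor and 29.3 ± 2.66% with the combination (SD, n = 2). Etv5 took 43.4 ± 1.25%, 52.4 ± 1.49% and 61.4 ± 1.13%, so that per kilobase the leading ETV transcript changed from Etv4 to Etv5 between controls and either treated group. In CPM not divided by length, Etv5 already led in controls, at 50.2 and 49.1 CPM against 45.7 and 40.2 CPM for Etv4. Among the phosphatases, Dusp6 took 47.0 ± 1.18% in controls, 48.3 ± 0.592% with the inhibitor and 67.6 ± 1.61% with the combination. These shares were not tested beyond the tests of the single genes.

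**Figure D3:**
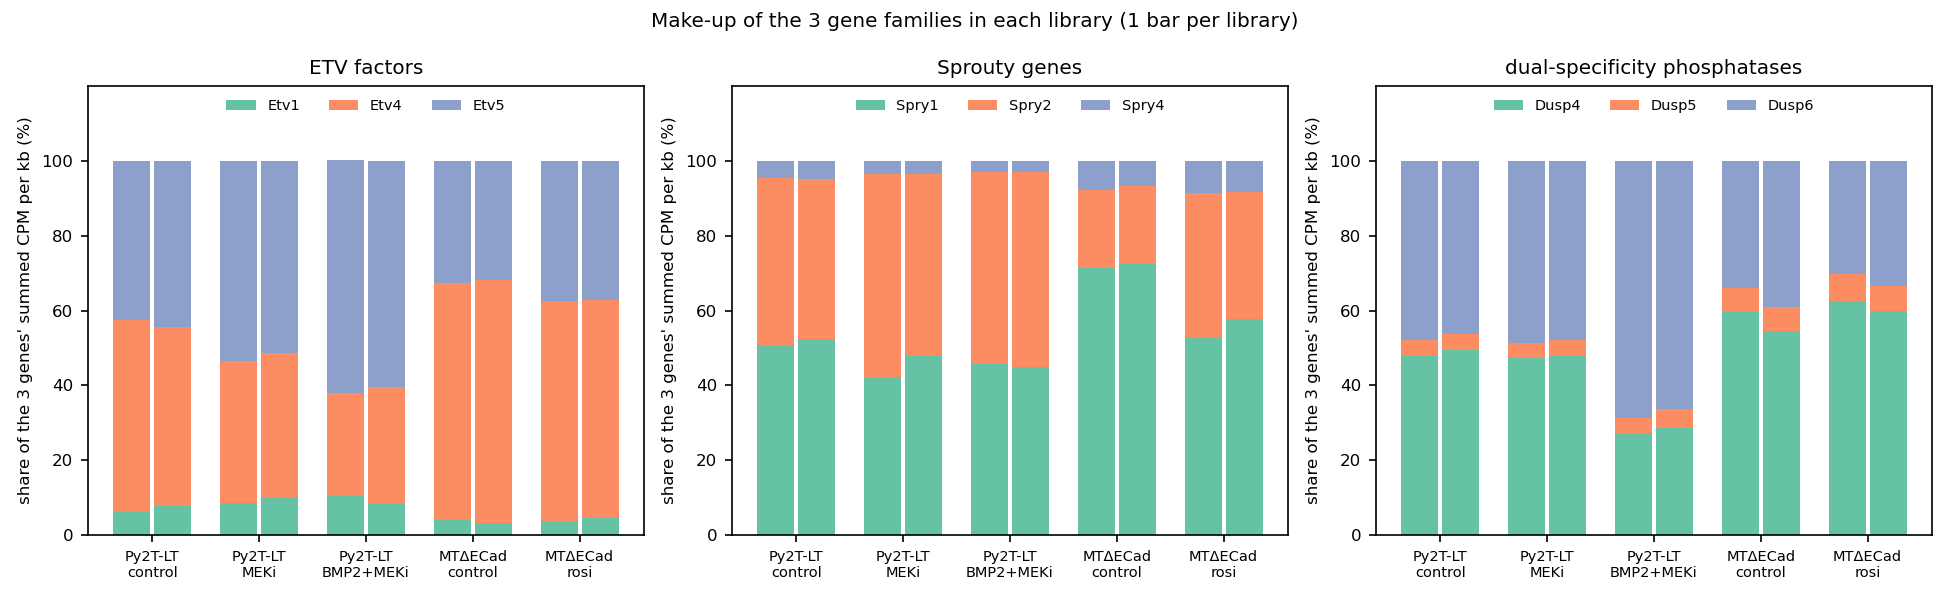
Share of each gene in the summed CPM per kb of its family, in percent, with 1 stacked bar for each of the 10 libraries. Etv5 takes 61.4% of the ETV level and Dusp6 67.6% of the phosphatase level on average with BMP2 plus the MEK inhibitor, and Spry1 takes 71.9% of the Sprouty level in the MTΔECad controls.

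The wider pathway in the combination group held falls and rises. Of 8 other inhibitors, 4 fell against controls by edgeR (5 by DESeq2) and none rose by either (0 higher at an unadjusted p under 0.05), with a median of -0.54. Among them were Il17rd, which fell by 1.83 ± 0.11 to 15.1 and 17.9 CPM, and Lrig1, a suppressor of receptor tyrosine kinases, which fell by 1.21 ± 0.07. Of 6 other phosphatases, 2 fell and 1 rose (median -0.12). By edgeR 50.0% of each of these lists was called, against 38.5% of all genes. Dusp9 fell by 1.97 ± 0.21 to 2.48 and 3.08 CPM from 11.0 CPM in each control, and Dusp1, an early response phosphatase, fell by 1.57 ± 0.19. Dusp8, which prefers JNK and p38, rose by 1.60 ± 0.18, and with no count filter 2 phosphatases had risen.

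Output genes were divided too. Of 14 immediate early and other output genes, 6 fell and 3 rose against controls (median -0.17), the first count being 3 without control replicate 1. By edgeR that is 64.3% of the list, against 38.5% of all genes. Egr1 fell by 2.92 ± 0.25 to 2.68 and 3.78 CPM, and Egr2 fell by 2.02 ± 0.25, while Junb, an AP-1 subunit, rose by 1.47 ± 0.20 and Ier3 by 1.19 ± 0.10. Fosl1 fell by 1.25 ± 0.14 against the inhibitor alone, from 32.1 to 13.5 CPM on average. Ccnd1 differed from controls by -0.13 ± 0.08 and Phlda1 by -0.10 ± 0.17, neither called by edgeR.

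**Figure D4:**
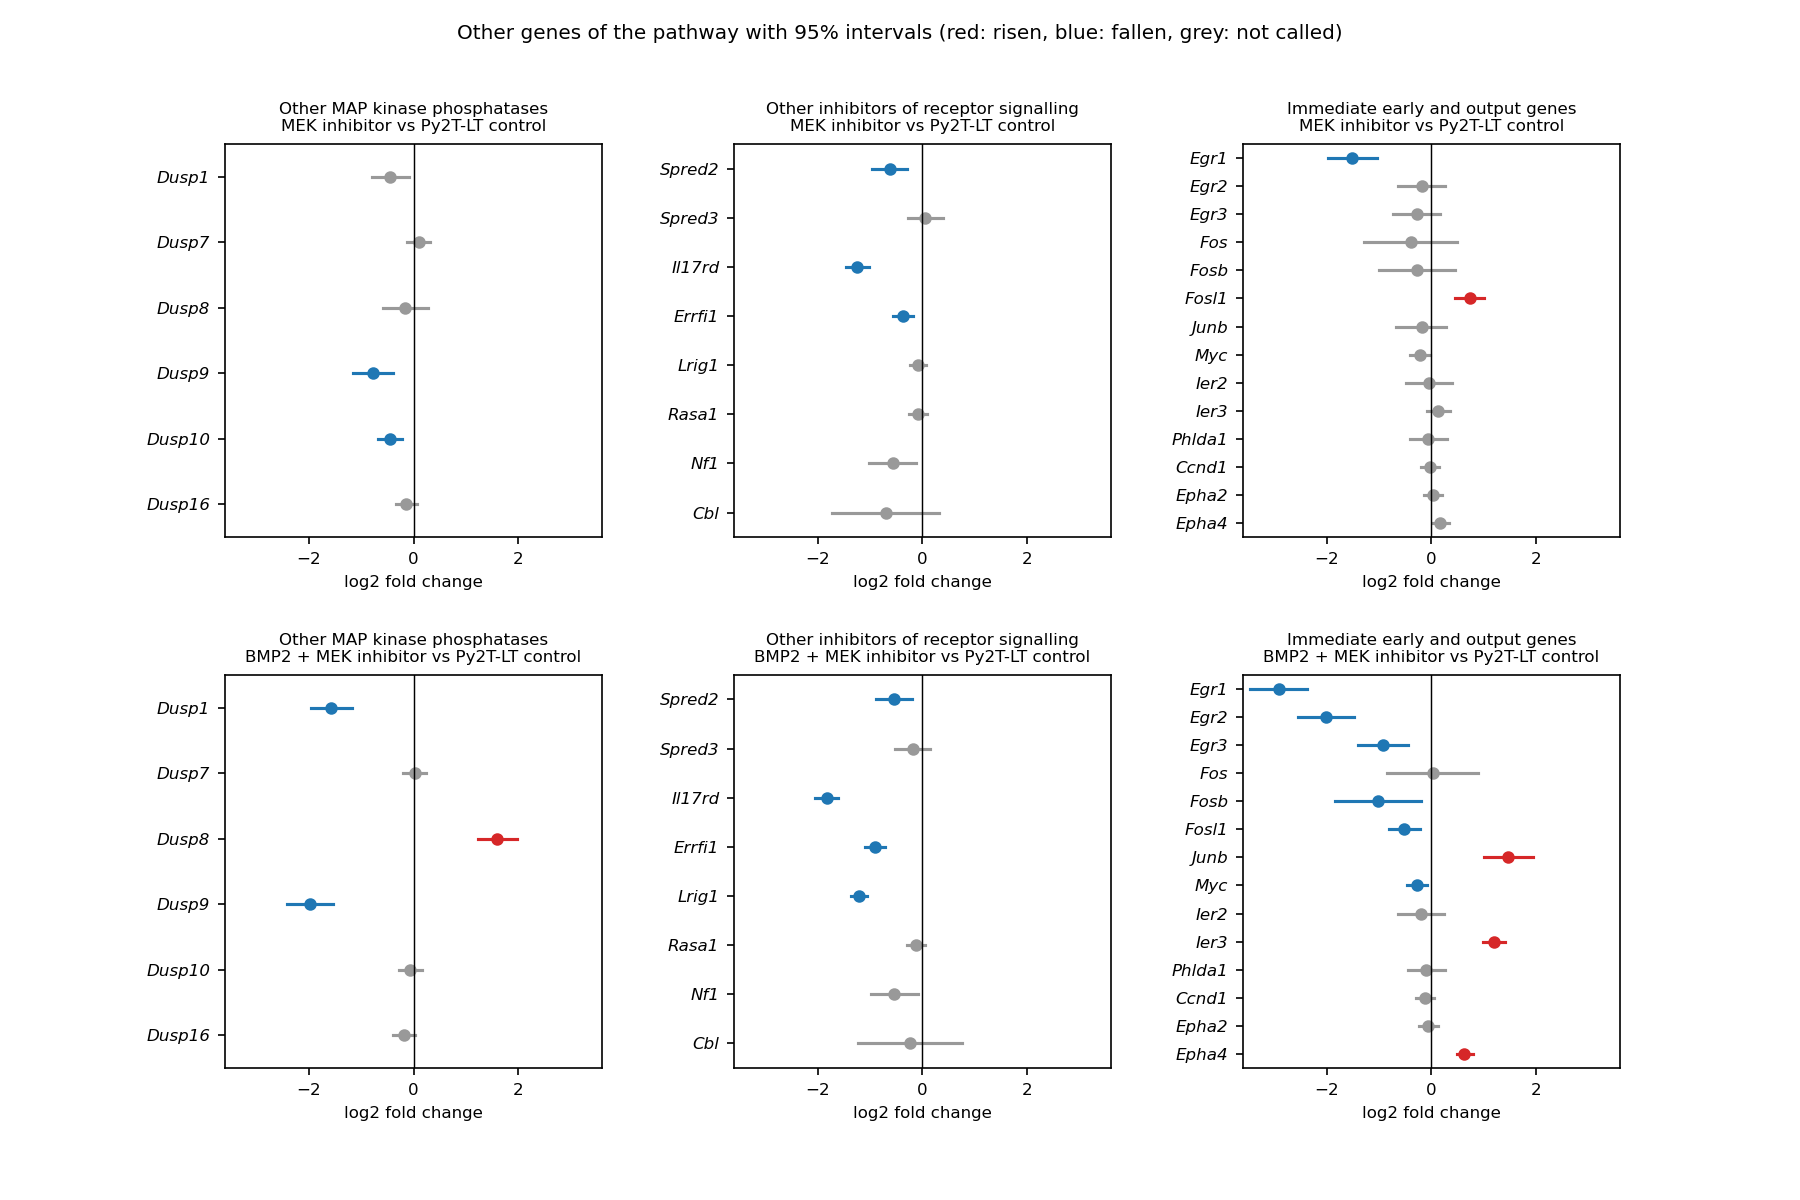
Log2 fold changes, with 95% intervals from edgeR, of other MAP kinase phosphatases, other inhibitors of receptor signalling, and immediate early and output genes, with the MEK inhibitor alone in the upper row and with BMP2 plus the inhibitor in the lower row, each against Py2T-LT controls. Il17rd, Dusp9 and Egr1 lie below 0 in both rows, at -1.25, -0.77 and -1.51 and then at -1.83, -1.97 and -2.92.

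For the cascade itself, 16 genes from RAS to ERK were tested. With the inhibitor alone 2 fell and none rose by edgeR or DESeq2 (0 higher at an unadjusted p under 0.05; median -0.08), and 3 rose and 1 fell with the combination against controls (median -0.04). These are 12.5% and 25.0% of the list, below the 16.5% and 38.5% called over all genes. For the combination against the inhibitor alone, 6 rose and 2 fell (median 0.18), 50.0% of the list against 37.3% of all genes, with 3 risen without combination replicate 1 or 2 or inhibitor replicate 1, and 4 fallen with only the groups compared. The scaffold gene Ksr1 fell by 0.76 ± 0.11 with the combination. These counts shifted when libraries were left out: with the inhibitor, 5 fell without control replicate 1 and 1 without inhibitor replicate 2, and with the combination, 3 fell without control replicate 1, 2 without control or combination replicate 2, and 5 rose without control replicate 2. With a replicate block, without the count filter or with only the groups compared, 2 fell with the combination.

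With rosiglitazone in MTΔECad cells, 3 of the 10 genes were called: Spry2 and Spry4 rose, Etv4 fell, and 7 did not pass the test. Over all genes 13.2% were called, 7.95% as risen and 5.26% as fallen, and the median log2 fold change was -0.04 for the 10 genes and -0.02 for all. Spry2 was at 25.1 and 23.1 CPM with rosiglitazone against 10.4 and 11.0 CPM in controls, groups far apart, and rose by 1.17 ± 0.12 (edgeR adjusted p = 3e-07). Its treated level thus lay near that of the Py2T-LT cells with BMP2 plus the inhibitor. Spry4 was at 12.9 and 13.1 CPM against 8.70 and 7.95 CPM, its highest level in any group, and rose by 0.64 ± 0.15 (edgeR adjusted p = 0.0042). Etv4 was at 26.1 and 21.9 CPM against 32.0 and 33.2 CPM and fell by 0.44 ± 0.12 (edgeR adjusted p = 0.015). Of these 3 calls that of Spry2 held in all 9 alternatives: that of Spry4 was lost without control replicate 2 (0.067; range 0.0013 to 0.067), and that of Etv4 without rosiglitazone replicate 2 (0.19), control replicate 1 (0.058) or control replicate 2 (0.1; range 0.003 to 0.19).

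The remaining genes were closer between the groups. Spry1 overlapped between the groups, at 48.1 and 55.0 CPM against 49.1 and 53.3 CPM, with a log2 difference of 0.01 ± 0.10. Dusp6 was at 103 and 114 CPM against 112 and 133 CPM, a log2 difference of -0.18 ± 0.11 with a 95% interval from -0.41 to 0.05. Dusp4, at 186 and 178 CPM against 171 and 163 CPM, differed by 0.12 ± 0.08 and did not overlap. The summed Sprouty level was 32.0 ± 1.03 CPM per kb with rosiglitazone and 24.5 ± 1.11 in controls (SD, n = 2), and the share of Spry2 in it was 36.1 ± 3.29% against 20.9 ± 0.0559%. Among other pathway genes, Lrig1 rose by 0.51 ± 0.07, while Egr1 differed by -0.03 ± 0.18. None of the 6 other phosphatases was called by edgeR or DESeq2 (0 at an unadjusted p under 0.05), where 13.2% of all genes were called by edgeR.

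The lines differed in these genes before any treatment. MTΔECad controls had 6 of the 10 lower than Py2T-LT controls (Etv1, Spry2, Etv5, Spred1, Etv4 and Dusp6) and 2 higher (Dusp5 and Dusp4), in a comparison where 61% of all genes were called, 31.7% as fallen and 29.3% as risen. The median log2 fold change was -0.38 for the 10 genes and -0.03 for all. This comparison uses the same Py2T-LT controls as those above, and line and any difference in culture cannot be told apart.

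Etv1, Spry2 and Etv5 were furthest apart. Etv1 was at 8.70 and 6.76 CPM in MTΔECad controls against 23.7 and 27.5 CPM, a log2 difference of -1.73 ± 0.14 (edgeR adjusted p = 1.4e-09). Etv5 was at 21.7 and 21.4 CPM against 50.2 and 49.1 CPM (-1.20 ± 0.10, edgeR adjusted p = 1.8e-09). Spry2 was at 10.4 and 11.0 CPM against 30.0 and 29.9 CPM (-1.48 ± 0.12, edgeR adjusted p = 6e-10). None of these 3 overlapped between the lines. Spred1 was at 111 and 118 CPM against 169 and 199 CPM and lower by 0.68 on the log2 scale (-0.68 ± 0.10), and Dusp5 was at 16.9 and 17.2 CPM against 12.4 and 10.4 CPM (0.58 ± 0.14, edgeR adjusted p = 0.001).

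The calls of Dusp6, Etv4 and Dusp4 between the lines depended on single libraries. Dusp6 was at 112 and 133 CPM against 175 and 141 CPM (-0.37 ± 0.11, edgeR adjusted p = 0.0073). Leaving out Py2T-LT control replicate 1 gave -0.20 (0.13), and leaving out MTΔECad control replicate 1 gave -0.24 (0.1), within a range of 8.4e-05 to 0.13. Etv4 (-0.40 ± 0.11, edgeR adjusted p = 0.0051) was no longer called with Py2T-LT control replicate 1 left out (0.064; range 0.0014 to 0.064). The call of Dusp4 (0.23 ± 0.08, edgeR adjusted p = 0.02) ended without Py2T-LT control replicate 2 (log2 difference 0.12, adjusted p = 0.27) or MTΔECad control replicate 1 (0.19, 0.13), within a range of 0.0037 to 0.27. Spry1 and Spry4 were at like levels in the lines, with log2 differences of 0.05 ± 0.10 and 0.15 ± 0.16 and 95% intervals from -0.15 to 0.24 and from -0.17 to 0.48. Etv4 led the ETV family in MTΔECad controls with 64.3 ± 1.19% of its level per kilobase, and Spry1 led the Sprouty genes with 71.9 ± 0.837% (SD, n = 2).

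Across the 10 libraries the 10 genes did not follow a common pattern. On the log2 CPM scale Etv1 and Etv5 were the most alike (Pearson r = 0.98, n = 10 libraries in 5 groups), followed by Dusp4 with Spry1 (0.93) and with Spry4 (0.92). Dusp5 ran opposite to Spred1 (-0.94), and Dusp6 opposite to Spry4 (-0.85). These values mostly reflect the difference between the lines and between 3 Py2T-LT groups, and are given as descriptions. Among 12088 genes compared, those closest to Etv4 were P4ha2, Pdlim2 and Tubb6 (r = 0.99, 0.989 and 0.986), those closest to Etv5 were Pttg1ip, Zwilch and Tshz1 (0.996, 0.992 and 0.991), those closest to Spry4 were Cavin2, Dusp3 and Sema4b (0.981, 0.978 and 0.975), and those closest to Dusp6 were Ssbp1, Tiprl and Triqk (0.962, 0.953 and 0.952).

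In the RefSeq annotation of GRCm38.p6, Dusp4 (NCBI Gene 319520) lies on chromosome 8 from 34807610 to 34819894, Dusp5 (240672) on chromosome 19 from 53529145 to 53541809 and Dusp6 (67603) on chromosome 10 from 99263231 to 99267489. Spry1 (24063) lies on chromosome 3 from 37639947 to 37644599, Spry2 (24064) on chromosome 14 from 105891947 to 105896819, Spry4 (24066) on chromosome 18 from 38586247 to 38601347 and Spred1 (114715) on chromosome 2 from 117121071 to 117182279. Etv1 (14009) lies on chromosome 12 from 38780082 to 38870483, Etv4 (18612) on chromosome 11 from 101769747 to 101785310 and Etv5 (104156) on chromosome 16 from 22381313 to 22439570. Of the 10, only Dusp6 overlaps another annotated gene, the long noncoding RNA gene Gm34921, so reads of that locus may be shared in a way the sources used here do not describe.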

How the data were processed

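RNA of 2 independent experiments was sequenced on an Illumina HiSeq, per the labels' protocols, which name both a stranded total RNA kit and poly-A RNA. Reads were aligned with STAR to mm10, per the submitters' processing notes. The counting tool, annotation and strand setting were not given in the sources used here. The deposited table holds unnormalised read counts per gene for 18103 identifiers, of which 18057 were matched to RefSeq (GRCm38.p6) symbols and 3 to GENCODE, leaving 43, with 0.411% to 1.747% of a library's counts, unnamed but kept in the table.

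The analysis used edgeR 4.0.16 in R 4.3.3: filterByExpr (13149 genes kept), TMM scaling, a robust quasi-likelihood fit with 1 mean per group over all 10 libraries (5 residual degrees of freedom, common biological coefficient of variation 7.07%), glmQLFTest, and Benjamini-Hochberg adjustment within each comparison at 0.05. The SE is the log2 fold change over the square root of F. No replicate pair agreed within counting noise. The chi-square per gene was 16.3 for the Py2T-LT controls and 5.29 to 7.42 for the other groups. Alternatives were RLE size factors, no count filter, DESeq2 1.42.0, a fit of only the groups compared, a replicate block and each library left out. Depth limits what low genes show: 3 counts were at most 0.21 CPM. Correlations used log2 CPM with a prior count of 2.

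The 10 genes and all lists were chosen with earlier results of these data known. Named besides the 10 were up to 4 called genes per list with the largest change, and Egr1, Fosl1, Phlda1, Ccnd1, Spred2, Il17rd, Dusp1 and Cic whatever their values.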

Additional observations from a re-analysis of the deposited data

How the results depend on the processing

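Of the 10 counts of genes of this group that rose or fell in the 5 comparisons, the 6 and 7 falls with BMP2 plus the inhibitor were the steadiest, with 6 and 6 to 7 when 1 library was left out. With the inhibitor alone 1 fell, against 2 without the count filter and 0 with DESeq2, and the counts without 1 library ran from 0 to 1 risen and 0 to 1 fallen. For the combination against the inhibitor alone, 1 (Dusp6) in place of 0 rose with RLE size factors, without the count filter and with only the groups compared, and 0 to 1 without 1 library, as against controls (0 to 1). The counts without 1 library were 1 to 2 risen and 0 to 1 fallen with rosiglitazone, and 1 to 2 risen and 4 to 6 fallen between the lines. The cause of these shifts was not tested. Genes called in all numbered 1445 instead of 2170 with the inhibitor without Py2T-LT control replicate 2, and 1113 instead of 1737 with rosiglitazone without MTΔECad control replicate 1. No log2 fold change past the threshold changed direction under any alternative. The replicate block gave the same call for all 50 log2 fold changes of the 10 genes; with the inhibitor alone, 2 rose and 1 fell under the block as well. Same-numbered libraries did not deviate together (correlations from -0.058 to 0.1), so the numbers were not treated as pairs.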

Other observations

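Receptors upstream of the feedback genes moved in both directions. Of 10 receptor tyrosine kinase genes tested, 4 rose and 3 fell with the MEK inhibitor alone, and 3 rose and 4 fell with BMP2 plus the inhibitor, both against Py2T-LT controls by edgeR, which is 70.0% of the list in each case where 16.5% and 38.5% of all genes were called. Fgfr1, the main fibroblast growth factor receptor of many mesenchymal cells, fell by 0.94 ± 0.10 with the inhibitor, from 560 to 293 CPM on average, while Pdgfra rose by 1.18 ± 0.08 and Met by 0.72 ± 0.07. Fgfr2 was at 64.1 and 66.6 CPM with the combination against 11.0 and 9.50 CPM in controls and rose by 2.67 ± 0.12, and Egfr fell by 0.98 ± 0.09 and Pdgfrb fell by 0.96 ± 0.08. Of the list, Fgfr3 changed most in that comparison and rose, with log2 fold changes from 4.48 to 5.42 over the alternatives. No receptor of the list was called with rosiglitazone by edgeR or DESeq2 (1 lower at an unadjusted p under 0.05). In that comparison 13.2% of all genes were called. Without the count filter 1 receptor had fallen, and the absence of calls did not hold for every library left out.

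Other ETS factors differed among themselves as well. Ets2 fell by 0.68 ± 0.09 with the inhibitor alone and stood 0.88 ± 0.09 higher with the combination than with the inhibitor alone, at 152 against 82.3 CPM on average, whereas Ets1 fell by 0.90 ± 0.08 with the combination against controls. Atxn1 and Atxn1l, whose proteins bind and stabilise capicua, rose by 0.80 ± 0.09 and 0.41 ± 0.07 with the combination (edgeR adjusted p = 3.8e-07 and 1.1e-04). Capicua itself (Cic) was not called there, at 44.5 and 53.5 CPM with the combination against 54.7 and 88.2 CPM in controls. Without the count filter it was called as fallen (log2 difference -0.54, edgeR adjusted p = 4e-07). Its difference ran from -0.85 to -0.16 over the alternatives. Of 16 other ETS factors and capicua partners tested, 3 rose and 2 fell in that comparison, 31.2% of the list and no more than the 38.5% called over all genes, the falls numbering 5 without the count filter or without Py2T-LT control replicate 1.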
